A study of Mus musculus with 12 samples.

Results

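Intermediate filaments are the rope-like polymers of the cytoskeleton, and the lamins are the members of the same protein family that line the inside of the nuclear envelope. The data described here are the RNA levels of 10 genes of this family, chosen by name as those best known in Schwann cells, glia, neurons and nuclei, out of the 25700 genes in the deposited count table. They are Vim, Nes, Gfap, Nefl, Nefm, Nefh, Prph, Lmna, Lmnb1 and Lmnb2, and each symbol matched 1 row of the table. No measured value entered the choice of the genes, although earlier results of these data were known when it was made.

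The cells were eYFP-positive Schwann cells sorted by FACS from dissociated sciatic nerves at postnatal day 5 (P5), and the mice carried ReYFP Tg/+ and βAct-DsRed Tg/+ together with a Cre transgene. In all 3 groups, the Cre recombinase switches on eYFP in Schwann cells, and dsRed is carried by every cell of the animal. The groups are sort gates: allSC took all eYFP-positive cells, mSC took those of high side scatter (granularity), enriched in myelinating cells, and nmSC took those of low side scatter, enriched in cells that were not myelinating. Each gate had 4 libraries, numbered by subject 1 to 4, each from the cell suspension of 1 mouse. Per the paper, male and female mice gave equal numbers of samples in each gate, and these grouped in pairs by sex. Sex was not a term in the fits here. Because mSC and nmSC cells are also part of what the allSC gate collects, allSC is a mixture and not an untreated control.

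The 12 libraries held between 8180927 and 16918122 counts, from Smart-Seq2 cDNA of polyadenylated RNA. The levels below are CPM, the counts of a gene relative to the total of its library, after scaling with edgeR's TMM factors. In mSC these factors ran from 0.744 to 0.871 and in nmSC from 1.16 to 1.28, and the 50 top genes took up to 31.6% and up to 18.9% of the counts of a library in these gates, so the scaling matters for genes that differ little. As a check of the gates, Mbp, a protein of compact myelin, was higher in mSC than in nmSC, at 52034 ± 3476 CPM against 5658 ± 554 (SD, n = 4). Sox10, a transcription factor that marks these glia, was at 267 ± 97.6 CPM in mSC and 266 ± 49.8 CPM in nmSC, with an adjusted p of 0.993 in edgeR's test. Library 4 of mSC stood somewhat apart, with the lowest mean correlation to its gate (0.975) and the lowest TMM factor of the 12 libraries.

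Vimentin, nestin, GFAP and peripherin are cytoplasmic filament proteins. Vimentin is the general filament protein of mesenchymal and immature glial cells, nestin is the large partner that co-assembles with vimentin in progenitor and muscle cells, and GFAP is known in the peripheral nerve from non-myelinating and injured Schwann cells. Peripherin and the light, medium and heavy neurofilament proteins (Nefl, Nefm, Nefh) are best known as the filaments of axons. In the nucleus, A-type lamins (lamin A and lamin C) come from Lmna by splicing, and B-type lamins come from Lmnb1 and Lmnb2. Lamin A and the B-type lamins end in a CaaX box, a cysteine followed by 3 residues, which is farnesylated, whereas lamin C has no such box.

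The codons of that box show what the gene counts below cannot separate. The last 12 coding bases before the stop codon are given from the GENCODE M21 transcripts (GRCm38), 5′ to 3′, with the cysteine codon in capitals. Lamin A (transcript Lmna-201) ends at chr3:88482077-88482088 and lamin C (transcript Lmna-203) at chr3:88483300-88483311, both on the minus strand, and Lmnb2 (transcript Lmnb2-201) ends at chr10:80902862-80902873 on the minus strand.
Lmna-201: TGCagcatcatg
Lmna-203: ggcagccgccgc
Lmnb2-201: TGCcgactgatg
Lmna-201 encodes 665 residues and ends in coding exon 12, while Lmna-203 encodes 574 residues and ends in coding exon 10, without the cysteine codon. The counts are per gene, so a value of Lmna is the sum of both products.

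All 10 genes passed the filter on low counts and were tested with the 18597 genes that did. Between mSC and nmSC, Nes, Nefl, Nefm and Nefh were higher in mSC, Lmnb1 and Lmnb2 were lower, and Vim, Gfap, Prph and Lmna were not called. That is 6 of 10 genes, beside 40.5% of all tested genes called in this comparison (20.4% higher and 20.2% lower in mSC), so the number of genes called is not far above the background. The median log2 fold change was 0.50 over the 10 genes and -0.16 over all tested genes. The sizes differed widely, from 5.11-fold higher for Nes to 7.86-fold lower for Lmnb1. In bulk RNA of sorted cells, a difference between gates can come from fewer cells of a kind or from less RNA in each cell, and these cannot be told apart.

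**Figure D1:**
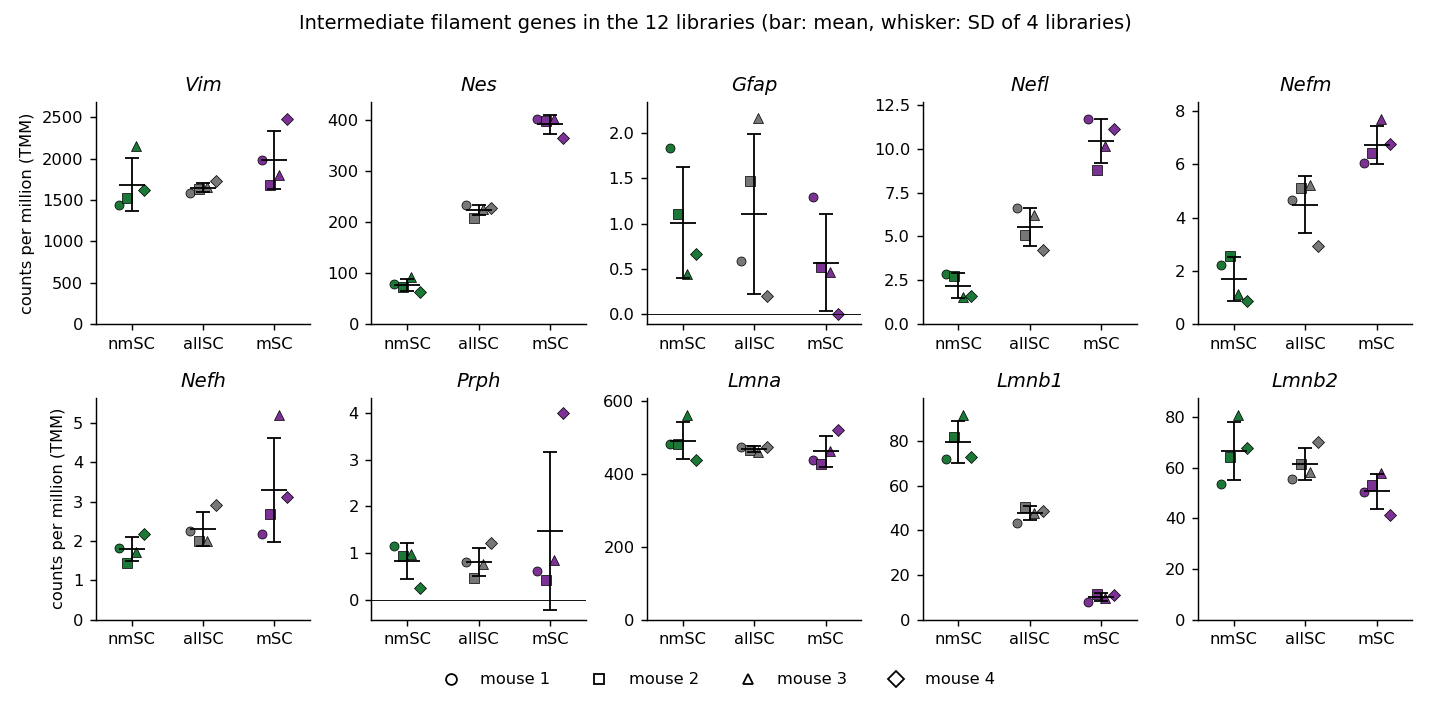
TMM-scaled CPM (linear axes) of the 10 intermediate filament genes in the nmSC, allSC and mSC libraries, where each point is a library, its shape is the subject number, the bar is the mean and the whisker the SD of 4 libraries. Nes, Nefl, Nefm and Lmnb1 separate mSC from nmSC with no overlap, while the ranges of Vim and of Lmna overlap between all 3 gates.

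Nes, on chromosome 3 from 87971078 to 87980451 on the plus strand (GRCm38), was the filament gene with the largest fitted rise. It had 402, 398, 401 and 364 CPM in mSC libraries 1 to 4, 233, 209, 226 and 227 CPM in allSC, and 79.0, 72.9, 91.8 and 62.5 CPM in nmSC. The 3 gates did not overlap, and the lowest mSC library was above the highest nmSC library by several times the spread within a gate. In edgeR's quasi-likelihood fit, mSC exceeded nmSC by 2.35 on the log2 scale (standard error 0.127, Benjamini-Hochberg adjusted p = 2.71e-11). The exact permutation test on log2(CPM + 1), two-sided, gave p = 0.0286, the smallest that this design can reach. Relative to allSC, Nes was 0.81 higher in mSC (standard error 0.121, adjusted p = 8.79e-05, edgeR) and fell by 1.55 in nmSC (standard error 0.124, adjusted p = 3.83e-08, edgeR), on the log2 scale.

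Because Nes had the largest fitted rise, the stretch before its start is shown. It is RefSeq's sequence of GRCm38.p6, chr3:87970843-87971077 on the plus strand, which ends just before the first exon base annotated in GENCODE.
Nes upstream: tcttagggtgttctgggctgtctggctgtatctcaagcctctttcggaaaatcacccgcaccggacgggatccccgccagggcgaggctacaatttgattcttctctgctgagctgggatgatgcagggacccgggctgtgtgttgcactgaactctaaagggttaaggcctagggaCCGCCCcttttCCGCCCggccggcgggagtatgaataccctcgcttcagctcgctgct
The capitals mark 2 copies of the GC box GGGCGG, both as its reverse complement, at positions -73 and -62 from RefSeq's start. RefSeq's start lies downstream of the last base shown, so these positions are not counted from the end of the stretch. Both strands were also searched for the TATA box TATAAA, the CCAAT box CCAAT and the cell cycle element TTTGAA, and these 235 bases hold none of these 3. Among 32851 windows of the same length in the RefSeq table, 30.6% hold the GC box, 11.9% the TATA box, 32.6% the CCAAT box and 15.3% the cell cycle element. RefSeq windows were found for 6 of the 10 genes.

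Vim, on chromosome 2 from 13573927 to 13582826 on the plus strand, had the highest level of the 10 genes and was not called in any comparison. It had 1986, 1685, 1804 and 2478 CPM in mSC, 1582, 1640, 1659 and 1726 CPM in allSC, and 1444, 1530, 2158 and 1617 CPM in nmSC. The gates overlapped, with library 4 of mSC and library 3 of nmSC each the highest of its gate. Between mSC and nmSC it differed by a log2 fold change of 0.24 (95% interval -0.063 to 0.54, adjusted p = 0.190, edgeR), and it was 0.40 above the median of all tested genes. The sign depended on the scaling: with library size alone it was -0.33 (adjusted p = 0.0206), at which the median of all genes was -0.73. Without library 3 of nmSC, the value was 0.39 with an adjusted p of 0.0312. Fibroblasts also make vimentin, and whether any passed the sort for eYFP was not tested. Of 6 fibroblast markers, the 3 collagen genes Col1a1, Col1a2 and Col3a1 were lower in mSC (log2 fold changes -2.12, -1.05 and -3.16), and they made up nearly all of the summed level of 2098 to 4305 CPM in mSC and 12676 to 18884 CPM in nmSC. The other 3 were low and not called, with Pdgfra at 2.34 ± 0.863 CPM in mSC and 2.35 ± 0.862 CPM in nmSC (SD, n = 4) and log2 fold changes of 0.55 for Dcn and 1.12 for Lum. None of the 6 was at 0 in any library, and the part of such RNA in the level of Vim was not tested.

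The ratio of Nes to its partner Vim can be taken within a library, where the scaling between libraries cancels. On the level per length (RPKM, the TMM-scaled CPM per kilobase of the union of exons), the ratio was 0.149 ± 0.0290 in mSC, 0.100 ± 0.00632 in allSC and 0.0339 ± 0.00514 in nmSC (SD, n = 4). The 4 mSC libraries were between 0.109 and 0.175 and the nmSC libraries between 0.0286 and 0.0405, without overlap. The lowest mSC library was library 4, at 0.109, which overlapped the range of allSC (0.0942 to 0.109) only at its upper end. With the mean transcript length in place of the union of exons, the means were 0.0674, 0.0452 and 0.0153, so the size of the ratio rests on the length used, while its order over the gates does not.

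GFAP transcripts were close to the detection limit in every gate. Gfap, on chromosome 11 from 102887336 to 102900912 on the minus strand, had 19, 6, 6 and 0 counts in mSC libraries 1 to 4, 8, 22, 28 and 2 counts in allSC, and 19, 13, 6 and 10 counts in nmSC. Library 4 of mSC had no count, which allows up to 0.375 CPM, at a floor of 3 counts, and library 4 of allSC had fewer than that floor. The mean level was 0.570 ± 0.535 CPM in mSC and 1.01 ± 0.610 CPM in nmSC (SD, n = 4). The fitted log2 fold change was -0.68 with a 95% interval from -2.16 to 0.80 (adjusted p = 0.449, edgeR), and this interval includes 0, so no direction could be given at this depth.

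Prph, on chromosome 15 from 99055174 to 99058978 on the plus strand, was similarly low. It had 0.612, 0.435, 0.855 and 4.00 CPM in mSC, 0.801, 0.469, 0.771 and 1.21 CPM in allSC, and 1.15, 0.937, 0.972 and 0.264 CPM in nmSC. One library, number 4 of mSC, held 32 counts where the other mSC libraries held between 5 and 11. The fitted log2 fold change of mSC against nmSC was 0.76 (95% interval -0.56 to 2.07, adjusted p = 0.341, edgeR), and without that library it was -0.35 (adjusted p = 0.637).

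The 3 neurofilament genes were all low but were higher in mSC. Nefl, the light subunit on which the others assemble, lies on chromosome 14 from 68083863 to 68089095 on the plus strand. It had 11.7, 8.78, 10.2 and 11.1 CPM in mSC, 6.63, 5.09, 6.24 and 4.23 CPM in allSC, and 2.88, 2.73, 1.57 and 1.58 CPM in nmSC. The gates did not overlap, and the mSC libraries rested on 172, 101, 131 and 89 counts. This gave a log2 fold change of mSC against nmSC of 2.27 (standard error 0.242, adjusted p = 3.12e-07, edgeR; exact permutation p = 0.0286, two-sided).

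Nefm, the medium subunit, is annotated on chromosome 14 from 68082590 to 68124846 on the minus strand, a span that holds the whole of Nefl. It had 6.05, 6.44, 7.69 and 6.74 CPM in mSC, 4.66, 5.09, 5.24 and 2.92 CPM in allSC, and 2.21, 2.55, 1.12 and 0.858 CPM in nmSC. Again no library of mSC overlapped those of nmSC. Such a separation of the 4 libraries of each gate was seen for Nes, Nefl, Nefm and Lmnb1 and for 34.2% of all tested genes. Its log2 fold change was 2.02 (standard error 0.305, adjusted p = 2.62e-05, edgeR; exact permutation p = 0.0286, two-sided). In GENCODE, an exon of Nefm shares 1108 bases with Nefl on the other strand. The library kit does not mark strand and the counting of overlapping genes is not stated, so reads from these bases cannot be assigned to one gene. Per length, the ratio of Nefl to Nefm was 2.68 ± 0.484 in mSC, 2.16 ± 0.361 in allSC and 2.40 ± 0.558 in nmSC (SD, n = 4), with overlapping ranges. With the mean transcript length, these means were 1.63, 1.31 and 1.46.

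Nefh, the heavy subunit, on chromosome 11 from 4938754 to 4948064 on the minus strand, showed the smallest difference of the 3. It had 2.17, 2.70, 5.21 and 3.12 CPM in mSC, 2.26, 2.01, 2.00 and 2.92 CPM in allSC, and 1.83, 1.45, 1.72 and 2.18 CPM in nmSC. Library 3 of mSC was the highest, and the lowest mSC library was just below the highest nmSC library. The log2 fold change was 0.87 (standard error 0.310, adjusted p = 0.0315, edgeR), while the exact permutation test gave p = 0.0571 (two-sided). The call rested on few counts: without library 3 of mSC the value was 0.56 with an adjusted p of 0.171, and leaving out libraries 1, 2 or 3 of nmSC, in turn, gave adjusted p values of 0.0560, 0.0831 and 0.0557. Scaling by library size alone gave 0.31 (adjusted p = 0.374).

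Markers of neurons were called in both directions between mSC and nmSC. Of 12 neuron markers, 3 were higher in mSC and 4 were lower, with a median log2 fold change of -0.051. Over all tested genes, 20.4% were higher and 20.2% lower in mSC, with a median of -0.16. Uchl1, a ubiquitin hydrolase abundant in neurons, rose from 5.08 ± 1.49 CPM in nmSC to 27.0 ± 11.6 CPM in mSC (SD, n = 4; log2 fold change 2.41, adjusted p = 1.06e-06, edgeR). Map2, a microtubule protein of dendrites, was lower, at 3.10 ± 0.754 CPM in mSC and 11.3 ± 1.49 CPM in nmSC (log2 fold change -1.84, adjusted p = 4.16e-07, edgeR). The summed level of the 12 markers was 40.0 to 78.0 CPM in mSC and 35.2 to 40.9 CPM in nmSC. Uchl1 alone ran from 16.9 to 43.7 CPM in mSC and from 2.90 to 6.28 CPM in nmSC. The higher sum in mSC therefore rests on this gene. None of the 12 was at 0 in any library. The part of axonal RNA in the neurofilament values was not tested.

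**Figure D2:**
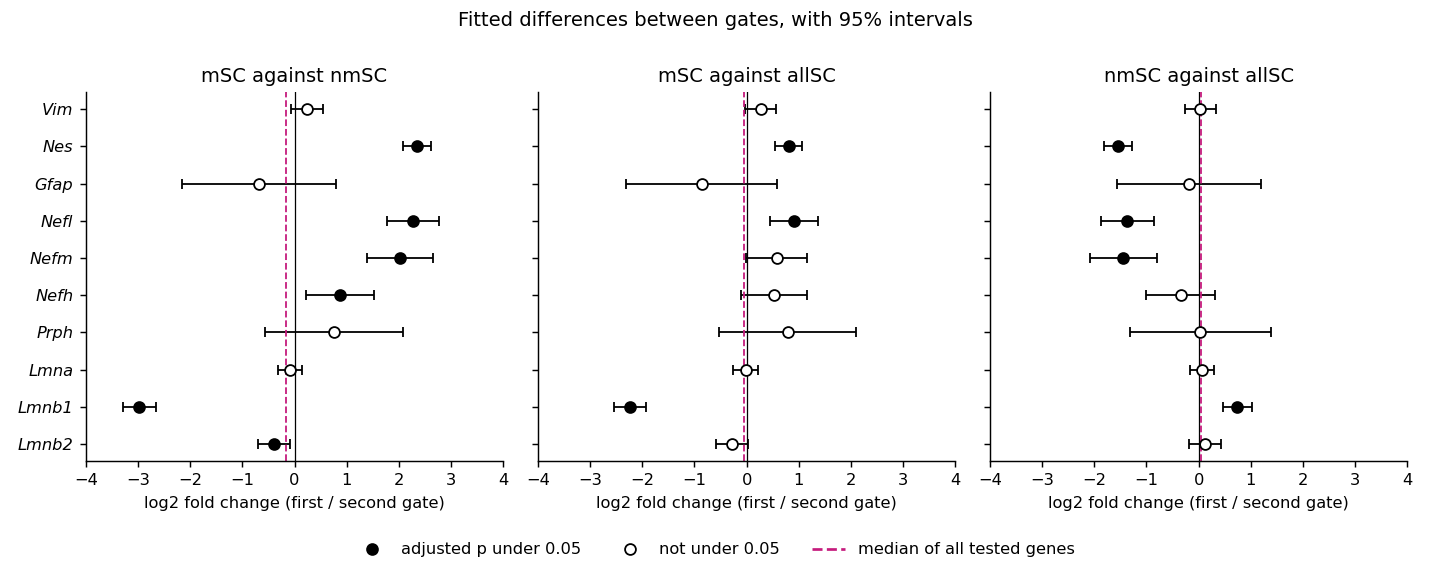
Log2 fold changes (x axis) of the 10 intermediate filament genes (y axis) in the 3 comparisons of gates, with 95% intervals from edgeR's fit; filled points had an adjusted p under 0.05 and the dashed line is the median of all tested genes. Lmnb1 lies at -2.97 and Nes at 2.35 in mSC against nmSC, and the intervals of Gfap and Prph span 0 in all 3 panels.

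The lamins split. Lmnb1, on chromosome 18 from 56707813 to 56753424 on the plus strand, had the largest difference of the 10 genes. It had 8.02, 11.6, 9.87 and 11.2 CPM in mSC, 43.2, 50.5, 47.8 and 48.8 CPM in allSC, and 71.9, 81.9, 91.8 and 72.9 CPM in nmSC. Each gate kept to its own range, with nmSC highest and mSC lowest. The log2 fold change of mSC against nmSC was -2.97 (standard error 0.150, adjusted p = 1.03e-11, edgeR; exact permutation p = 0.0286, two-sided). Against allSC, Lmnb1 fell by 2.23 in mSC (standard error 0.147, adjusted p = 2.29e-09, edgeR) and was 0.74 higher in nmSC (standard error 0.136, adjusted p = 0.000960, edgeR), on the log2 scale.

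Lmnb1 moved in the direction of the cell cycle genes. All 10 proliferation markers were lower in mSC, beside 20.2% of all tested genes, with a median log2 fold change of -3.27. Their summed level was 178 to 252 CPM in mSC, 849 to 949 CPM in allSC and 1314 to 1634 CPM in nmSC. Mki67, the antigen of cycling nuclei, had a log2 fold change of -3.52 and Top2a, the topoisomerase of replicating cells, one of -3.53. Pcna had the smallest difference of the 10, at -0.41, and its mSC and nmSC libraries overlapped. None of the 10 was at 0 in any library. How much of the difference in Lmnb1 goes with cycling cells was not tested.

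Lmnb2, the other B-type lamin gene, on chromosome 10 from 80901203 to 80918245 on the minus strand, differed far less. It had 50.3, 53.1, 57.7 and 41.3 CPM in mSC, 55.5, 61.6, 58.0 and 70.1 CPM in allSC, and 53.4, 64.2, 80.8 and 67.8 CPM in nmSC. The ranges of mSC and nmSC overlapped, although mSC was lower than nmSC in each of the 4 same-numbered pairs. The log2 fold change was -0.39 (standard error 0.146, adjusted p = 0.0381, edgeR), and the exact permutation test gave p = 0.0571 (two-sided). Relative to the median of all tested genes it was -0.23. This call did not hold in 14 of 20 alternatives, among them DESeq2's size factors (-0.33, adjusted p = 0.0857) and the fit without library 3 of nmSC (-0.28, adjusted p = 0.136), although the direction was the same in all 20.

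Lmna, on chromosome 3 from 88480147 to 88509956 on the minus strand, was nearly level. It had 439, 427, 462 and 521 CPM in mSC, 474, 467, 460 and 475 CPM in allSC, and 482, 483, 562 and 439 CPM in nmSC. No gate stood apart. The log2 fold change of mSC against nmSC was -0.090, with a 95% interval from -0.32 to 0.15 (adjusted p = 0.535, edgeR). Scaling by library size moved it to -0.66 (adjusted p = 2.74e-05), which was 0.066 above the median of all genes under that scaling, so Lmna stayed close to that median under both.

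Within libraries, the balance of the lamins therefore differed between gates. The ratio of Lmna to Lmnb1 on the level per length was 27.8, 18.7, 23.7 and 23.5 in mSC, 5.57, 4.69, 4.88 and 4.93 in allSC, and 3.40, 2.99, 3.11 and 3.06 in nmSC. No gate overlapped another, and no scaling of libraries enters this ratio. With the mean transcript length in place of the union of exons, the means were 43.9, 9.40 and 5.88, in the same order. The ratio of Lmnb2 to Lmnb1 was between 2.54 and 4.33 in mSC, between 0.839 and 0.992 in allSC and between 0.513 and 0.643 in nmSC. The 2 B-type genes thus changed places, with Lmnb2 above Lmnb1 in every mSC library and below it in every nmSC and allSC library, on the union of exons. With the mean transcript length, the mean ratio was 3.96 in mSC, 1.00 in allSC and 0.648 in nmSC, so the order in allSC rests on the length used. The ratio of Lmna to Lmnb2 was 6.86 ± 1.61 in mSC and 5.50 ± 0.813 in nmSC (SD, n = 4), and the ranges overlapped, while the mean transcript length gave 11.4 and 9.17.

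**Figure D3:**
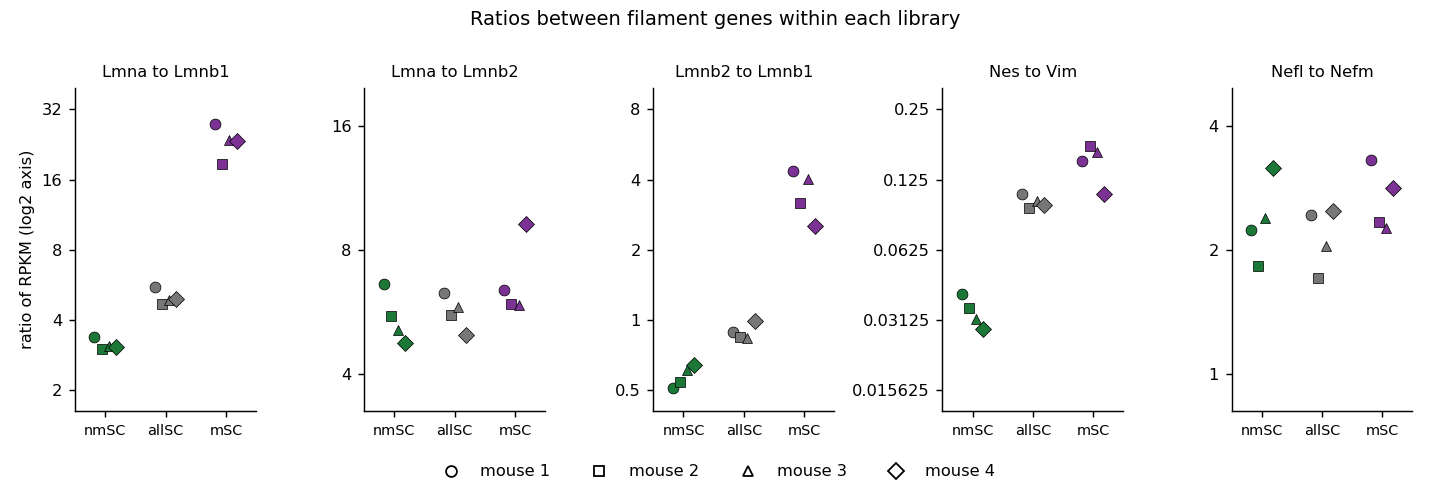
Ratios of RPKM (log2 axes) between pairs of filament genes in each nmSC, allSC and mSC library; each point is a library and its shape is the subject number. Lmna to Lmnb1 runs from 2.99 to 3.40 in nmSC and from 18.7 to 27.8 in mSC, whereas Nefl to Nefm overlaps between the gates.

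Ordered by level per length in allSC, the genes were Vim (348 ± 12.5 RPKM), Lmna (80.3 ± 1.22), Nes (34.9 ± 1.61), Lmnb1 (16.1 ± 1.06), Lmnb2 (14.3 ± 1.48), Nefl (1.64 ± 0.324), Nefm (0.775 ± 0.185), Nefh (0.575 ± 0.108), Prph (0.406 ± 0.152) and Gfap (0.262 ± 0.209; SD, n = 4 throughout). The ranges of Lmnb1 and Lmnb2 overlapped, as did each neighbouring pair from Nefm down to Gfap. Vim made up 69.1% to 70.4% of the summed level of the 10 genes in allSC libraries, 69.5% to 75.8% in mSC and 69.4% to 73.7% in nmSC. In mSC, Nes followed Lmna at 61.0 ± 2.82 RPKM, and Lmnb1 came after Lmnb2 at 3.43 ± 0.545 RPKM, where its range overlapped that of Nefl. In nmSC, Lmnb1 followed Lmna at 26.9 ± 3.13 RPKM, and Nes came after Lmnb2 at 11.9 ± 1.90 RPKM (SD, n = 4), although the ranges of Lmnb2 (12.5 to 18.8 RPKM) and Nes (9.75 to 14.3 RPKM) overlapped. These levels depend on the length taken for each gene. With the mean transcript length, Vim was at 1110, Lmna at 255 and Nes at 50.1 RPKM in allSC, Lmnb1 and Lmnb2 were both at 27.2 RPKM, and Gfap (0.591) moved above Nefh (0.575) and Prph (0.553).

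The mean of the mixed gate lay between those of the other 2 for the 6 genes called in mSC against nmSC. Against allSC, mSC had 3 of the 10 genes called (Nes and Nefl higher, Lmnb1 lower), beside 17.6% of all tested genes (8.76% higher and 8.8% lower in mSC). The nmSC gate had 4 called (Lmnb1 higher, Nes, Nefl and Nefm lower), beside 10.4% (2.83% higher and 7.54% lower in nmSC). These comparisons share the allSC libraries, so they are not independent. Nefl was 0.91 higher in mSC than in allSC (standard error 0.221, adjusted p = 0.00754, edgeR) and fell by 1.36 in nmSC (standard error 0.245, adjusted p = 0.000783, edgeR). With library size alone the first of these was 0.60 (adjusted p = 0.0750). Nefm fell by 1.45 in nmSC (standard error 0.308, adjusted p = 0.00363, edgeR), and in mSC its value was 0.58 (adjusted p = 0.164). On the linear scale of mean CPM, with nmSC as 0% and mSC as 100%, allSC stood at 46.7% for Nes, 40.7% for Nefl, 55.4% for Nefm, 46.1% for Lmnb1, 33.5% for Nefh and 32.9% for Lmnb2. Within same-numbered libraries, the position of Nefh ran from 8.15% to 124% and that of Lmnb2 from -69.5% to 98.7%, so for these 2 genes allSC lay outside the other gates in single subjects. The median over 4668 called genes with a mean of at least 10 CPM over mSC and nmSC was 43.7%, with quartiles of 34.2% and 52.5%. Beside these, Nefm was just above the upper quartile and Nefh and Lmnb2 just below the lower one. Nefl, Nefm and Nefh averaged under 10 CPM over mSC and nmSC, so they are not among those 4668 genes. Library size alone put Nefm at 72.2% and the median at 53.9%.

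Other intermediate filament genes were mostly low. Of 19 further genes of the family, 12 passed the filter, of which 1 was higher and 3 were lower in mSC than in nmSC. Krt80, an epithelial keratin, was lower by the most, at 1.82 ± 0.837 CPM in mSC and 18.4 ± 3.27 CPM in nmSC (SD, n = 4; log2 fold change -3.27, adjusted p = 2.67e-09, edgeR). Ina, α-internexin, which co-assembles with neurofilaments, was also lower, with a mean of 2.52 against 4.35 CPM (log2 fold change -0.84, adjusted p = 0.0370, edgeR), the opposite direction to Nefl and Nefm. Des, the filament of muscle, was at 0.485 ± 0.232 and 0.906 ± 0.0315 CPM (adjusted p = 0.112, edgeR), and Synm, a large partner of vimentin and desmin, at 5.43 ± 1.27 and 4.20 ± 0.696 CPM (adjusted p = 0.210, edgeR). Krt8 and Krt18, the keratins of simple epithelia, did not pass the filter.

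Of 9 linkers of filaments, 1 was higher and 3 were lower in mSC. Plec, plectin, which ties filaments to other cytoskeletal systems and to adhesion sites, rose from 132 ± 15.4 CPM in nmSC to 274 ± 21.0 CPM in mSC (SD, n = 4; log2 fold change 1.05, standard error 0.117, adjusted p = 5.70e-07, edgeR). Its 4 mSC libraries, from 252 to 299 CPM, were all above the 4 nmSC libraries, from 118 to 154 CPM. Macf1, the microtubule and actin crosslinker, was lower, at 14.6 ± 2.18 against 49.1 ± 1.44 CPM (log2 fold change -1.74, adjusted p = 4.82e-09, edgeR). Dst, dystonin, had a log2 fold change of -0.31 with an adjusted p of 0.0642 (edgeR).

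Among 17 genes listed as partners of the lamins at the nuclear envelope, 2 were higher and 4 lower in mSC, and the median log2 fold change was -0.056. The list is broad, and not all of its genes encode proteins that bind lamins. Tmpo, which encodes the LAP2 proteins that bind lamins and chromatin, was lower by the most, at 51.5 ± 5.17 CPM in mSC and 148 ± 21.0 CPM in nmSC (SD, n = 4; log2 fold change -1.52, adjusted p = 2.72e-08, edgeR). Lbr, the lamin B receptor, was also lower (log2 fold change -0.57, standard error 0.122, adjusted p = 0.00103, edgeR), as was Sun2, of the complex that links the nucleus to the cytoskeleton, at -0.57 (adjusted p = 0.00721, edgeR). Syne3, a nesprin that connects SUN proteins to cytoplasmic filaments through plectin, was higher at 0.77 (adjusted p = 0.00205, edgeR), and Tor1aip2, an activator of torsin, at 0.72 (adjusted p = 3.68e-05, edgeR). Emd, emerin, was at 7.04 ± 2.62 and 8.43 ± 2.65 CPM (adjusted p = 0.397, edgeR).

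Genes for the processing of the CaaX box were mostly higher in mSC. Of 6 such genes, 5 were higher and none lower, with a median log2 fold change of 0.76, beside 20.4% of all tested genes higher in mSC. One of the 5, Narf, encodes a protein that binds prelamin A and is not one of the enzymes that modify the box (log2 fold change 0.37, adjusted p = 0.0258, edgeR). Thus 4 of 5 enzyme genes were called higher, and for 1 of these the mSC and nmSC libraries overlapped (exact permutation p = 0.2, two-sided). Fnta, the alpha subunit of farnesyltransferase, was at 1073 ± 135 CPM in mSC and 536 ± 41.4 CPM in nmSC (SD, n = 4; log2 fold change 1.00, adjusted p = 1.23e-06, edgeR). Fntb, the other farnesyltransferase subunit, was at 144 ± 11.9 against 66.3 ± 4.46 CPM (log2 fold change 1.12, adjusted p = 1.79e-07, edgeR). Zmpste24, the protease that matures prelamin A, had a log2 fold change of 0.23 with an adjusted p of 0.239 (edgeR). These enzymes act on many proteins besides lamins. With library size alone, 2 of the 6 were called.

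Of 18 kinases and chaperones known to act on filaments, 16 were tested, with 4 higher and 3 lower in mSC. The 3 lower genes were Aurkb (log2 fold change -3.60, adjusted p = 2.81e-11, edgeR), Cdk1 (-3.21, adjusted p = 1.38e-09, edgeR) and Plk1, mitotic kinases of which Cdk1 is also in the proliferation list. Prkca, protein kinase C alpha, was higher, at 62.7 ± 13.3 CPM in mSC and 17.9 ± 1.79 CPM in nmSC (SD, n = 4; log2 fold change 1.81, adjusted p = 1.89e-08, edgeR). Cryab, the small heat shock protein that binds vimentin and GFAP filaments, was at 1576 ± 834 CPM in mSC and 464 ± 85.5 CPM in nmSC (log2 fold change 1.77, adjusted p = 1.35e-05, edgeR). Its mSC libraries spread widely, from 821 to 2763 CPM with a median of 1359 CPM. Their range overlapped that of allSC, from 700 to 864 CPM. Each of these lists was read by its counts alone, beside the 40.5% of tested genes called in this comparison.

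**Figure D4:**
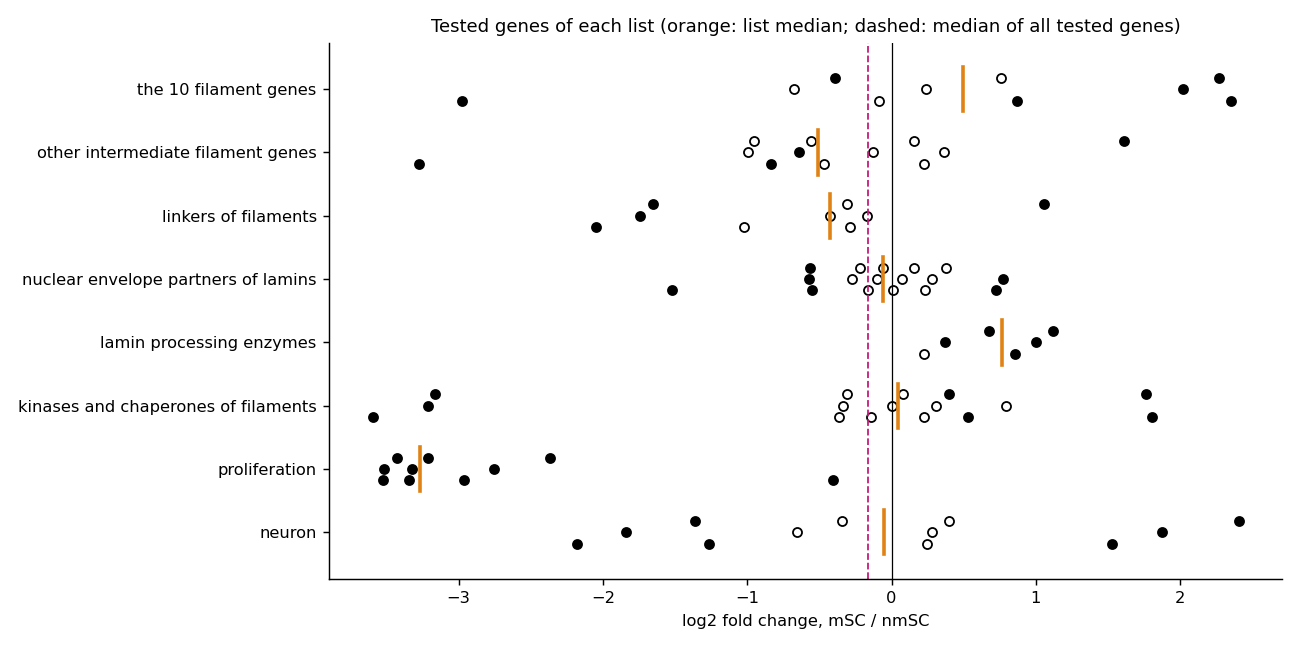
Log2 fold change of mSC against nmSC (x axis) of each tested gene in 8 lists (rows); filled points had an adjusted p under 0.05 in edgeR's test, orange bars are list medians and the dashed line is the median of all tested genes. The lamin processing genes (the row named enzymes, which also holds Narf) have a median of 0.76 and the proliferation genes one of -3.27, and the 10 filament genes spread from -2.97 for Lmnb1 to 2.35 for Nes.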

How the data were processed

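RNA of sorted Schwann cells was measured in 12 libraries, 4 per gate. Per the paper's methods and the submitters' processing notes, the authors aligned single-end reads with STAR (2.6.1c in the notes), counted them per Ensembl gene with featureCounts and deposited raw counts. The notes name the mouse build GRCm38.p5, which the identifiers match, although a human build stands in the methods. How featureCounts treated strand, multi-mapping or overlaps between genes is not given in the sources used here.

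Symbols, positions and lengths came from GENCODE M21 (GRCm38), which matched 25664 of 25700 identifiers. From the deposited counts, edgeR 4.0.16 in R 4.3.3 gave TMM factors, its expression filter by gate, and the quasi-likelihood test from a single fit of all 12 libraries, where p-values were adjusted by Benjamini-Hochberg over the 18597 genes tested (threshold 0.05). Exact permutation tests (two-sided) used log2(CPM + 1). RPKM was TMM-scaled CPM per kilobase of the union of exons, with the mean transcript length as the alternative. Floors of 3 counts and counting precision cover counting error only, since PCR copies are not independent molecules. The 10 genes and the gene lists were chosen with earlier results of these data known, and all 10 genes are named. From each other list, the 2 genes with the largest change in each direction among those called, with a mean of at least 10 CPM over mSC and nmSC, could be named, plus Des, Synm, Ina, Krt8, Krt18, Plec, Dst, Lbr, Emd and Zmpste24. One gene of these lists is not reported here. Sox10, Map2, Plk1 and Pcna were named outside these rules or as markers, after their values were seen.

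The labels give the libraries of each gate a subject number from 1 to 4, read here as 4 animals. That 1 animal gave all 3 gates is not otherwise given in the sources used here. The deviations of same-numbered libraries from their gates' means correlated between -0.225 and 0.246 over the 3 comparisons, and the subject number was fitted as a replicate block in an alternative. No 2 libraries of a gate were duplicates by a chi-square test of their counts. On simulated counts for mSC against nmSC (5 draws, 200 changed genes, 17885 genes tested on average), the test recovered 53.6% of 2-fold and 86.2% of 4-fold changes, and 6.37% of its calls were false. In the data, 40.5% of tested genes were called, a far larger share than was changed in the simulation. These rates therefore need not hold for the data. Alternatives were DESeq2 1.42.0 (its size factors and its Wald test), library size with and without the 50 top genes, other filters, only the gates compared, the block, mean transcript length, and leaving out each library.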

Additional observations from a re-analysis of the deposited data

Results flagged for a closer look

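In 30 groups of 4 libraries (10 genes in 3 gates), 2 held a library far from the other 3 by Dixon's test, and chance alone would flag about 1 in 20 such groups. Both were library 4 of mSC. Nes was at 364 CPM there, where the other mSC libraries were between 398 and 402 CPM, still above all allSC and nmSC libraries. Prph was at 4.00 CPM there, where the others were between 0.435 and 0.855 CPM. The same library had the lowest TMM factor (0.744) and the largest share of counts in its 50 top genes (31.6%). The part of these in the values of Nes and Prph was not tested.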

How the results depend on the processing

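The calls of Nes, Nefl, Nefm and Lmnb1 in mSC against nmSC held in all 20 alternatives, with log2 fold changes of 1.79 to 2.46, 1.70 to 2.43, 1.44 to 2.31 and -3.54 to -2.86. The number of the 10 genes called was 4 to 7 in mSC against nmSC, 3 to 4 in mSC against allSC and 4 to 5 in nmSC against allSC. Scaling by library size alone moved the median of all tested genes to -0.73 and the calls over all genes to 11864 (12.2% of them higher in mSC, 50.3% with TMM), and those of nmSC against allSC to 2951 (74.8% higher in nmSC, 27.3% with TMM), while 9.43% of the calls in mSC against allSC were higher in mSC (49.9% with TMM). It also turned Vim to -0.33 in mSC against nmSC and -0.049 in mSC against allSC, and Gfap to 0.083 in nmSC against allSC. Without the 50 top genes the median was -0.53, the higher share of calls was 21.0%, 18.9% and 56.6% in the 3 comparisons, and Vim was at -0.13 in the first. A fit of only the gates compared gave 2899 calls in nmSC against allSC. Lmna in mSC against allSC, at -0.021, was 0.038 with DESeq2's size factors and 0.038 in its Wald test, and ran from -0.056 to 0.038 without single libraries. Leaving out single libraries gave ranges that cross 0, never called, for Prph (-0.35 to 1.09 in mSC against nmSC and -0.30 to 1.13 in mSC against allSC, negative only without library 4 of mSC, and -0.17 to 0.35 in nmSC against allSC) and, in nmSC against allSC, for Vim (-0.11 to 0.097), Lmna (-0.0056 to 0.12) and Gfap (-0.61 to 0.33). With the subject number as a replicate block, 6, 3 and 4 of the 10 genes were called in the 3 comparisons, the same numbers as without it, and Nefh and Lmnb2 had adjusted p values of 0.0416 and 0.0487. The block left 1 call, in place of 2, among both the other filament genes and the lamin partners in nmSC against allSC, and changed no other count by over 1.5 times. The causes of these shifts were not tested beyond the scaling itself. Gfap and Prph, at 0 to 32 counts per library, limit any statement on them.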
